A study of Homo sapiens with 16 samples.

Results

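AP-1 is a family of dimeric transcription factors. Its subunits are basic leucine zipper (bZIP) proteins of the FOS, JUN and BATF families, and the small MAF proteins pair with related bZIP factors. H3K27ac, acetylation of histone H3 at lysine 27, marks active promoters and enhancers. The positions of H3K27ac regions that changed upon inhibition of O-GlcNAc transferase (OGT) are given here for 10 genes of this group, namely FOS, FOSB, FOSL1, FOSL2, JUN, JUNB, JUND, BATF3, MAFF and MAFK. The genes were listed by symbol, as a group chosen with earlier results of these data known. A region was given to a gene when any base of it lay in the gene body or within 100 kb of the gene's 5′ end in GENCODE release 44 (hg38). By this rule, 24 of the 7130 listed regions were at the 10 genes, of which 7 came from the 3507 lost regions and 17 from the 3623 gained ones. Some of the gained regions abut, and with abutting regions joined the counts were 7 lost and 13 gained. No region was given to more than 1 of the genes.

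LX-2, an established human hepatic stellate cell line, was grown in DMEM with 5% serum. The cells were treated or not (control) for 24 h with 50 µM OSMI-1, an OGT inhibitor (OGTi). H3K27ac ChIP-seq was done on 4 biological replicates of each arm. The other 8 of the 16 samples, input DNA and column purified chromatin, were not analysed here. The lists give positions only, called by the authors over the 8 H3K27ac libraries, with an adjusted p of 0.15 in the names of the lists, so that no signal per sample, size of change, error or sequencing depth stands behind a region named below. They cover changed regions, and a gene without one may hold acetylated regions that did not change. The identity of the cells could not be checked against marker genes, since the lists hold no levels.

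AP-1 dimers bind the TPA response element TGACTCA, and are known as targets of MAP kinase signalling. FOS, FOSB, JUN and JUNB are immediate early genes, switched on within minutes by serum and growth factors, and FOSL1 (FRA-1) and FOSL2 (FRA-2) follow more slowly. In hepatic stellate cells, AP-1 is known for its part in activation to the myofibroblastic state. BATF3 and the small MAF proteins MAFF and MAFK lack a transactivation domain of their own.

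The sequences shown first lie in the regions that were closest to the 5′ end of their gene and in the lost regions of MAFK and BATF3, which held AP-1 matches. They are hg38 plus strand, with capitals for matches to the AP-1 element TGACTCA, the antioxidant response element (ARE) TGACNNNGC, the cAMP response element (CRE) TGACGTCA and the CArG box bound by serum response factor, on either strand. An ARE match can contain an AP-1 match.
FOSL1, gained, chr11:65899326-65899452, intron: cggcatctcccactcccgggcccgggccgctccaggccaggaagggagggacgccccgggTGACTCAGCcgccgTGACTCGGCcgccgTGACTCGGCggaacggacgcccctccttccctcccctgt
MAFF, gained, chr22:38201744-38201961, promoter: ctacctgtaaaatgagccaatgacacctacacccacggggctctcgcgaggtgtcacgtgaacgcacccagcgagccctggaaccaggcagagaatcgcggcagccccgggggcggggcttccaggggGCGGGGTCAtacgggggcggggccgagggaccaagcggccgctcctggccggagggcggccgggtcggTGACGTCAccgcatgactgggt
JUNB, lost, chr19:12789456-12789582, upstream: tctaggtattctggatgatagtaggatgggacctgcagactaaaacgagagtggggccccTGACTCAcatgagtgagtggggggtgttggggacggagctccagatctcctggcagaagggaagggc
JUNB, lost, chr19:12789888-12790017, upstream: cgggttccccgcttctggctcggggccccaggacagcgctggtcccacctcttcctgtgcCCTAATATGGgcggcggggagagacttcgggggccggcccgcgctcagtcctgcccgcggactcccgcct
MAFK, lost, chr7:1458885-1459011, intron of MICALL2: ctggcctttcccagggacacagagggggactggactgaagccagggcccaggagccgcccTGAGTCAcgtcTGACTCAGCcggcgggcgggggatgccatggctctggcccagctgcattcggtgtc
BATF3, lost, chr1:212667499-212667625, intergenic: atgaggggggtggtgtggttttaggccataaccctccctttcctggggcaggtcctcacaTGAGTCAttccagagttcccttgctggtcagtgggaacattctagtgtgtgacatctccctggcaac

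The 10 genes did not share a direction. Lost regions alone were found at 4 genes (FOSL2, JUNB, BATF3 and MAFK), gained regions alone at 4 genes (FOSB, FOSL1, JUN and MAFF), both kinds at JUND and neither at FOS. Thus 5 of 10 genes had a lost region, whereas 21.6% of the 19970 protein-coding genes of the autosomes and X did. Likewise, 5 of 10 had a gained region, compared with 30.6% of protein-coding genes. Among the 8987 protein-coding genes with any listed region by the same rule, 32.0% had lost regions only, 51.9% gained regions only and 16.1% both. These shares were not tested, since the genes were chosen as a group with earlier results of these data known. Many protein-coding genes are silent and unacetylated in any one cell line, and the share of expressed genes with a listed region was not used here.

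**Figure D1:**
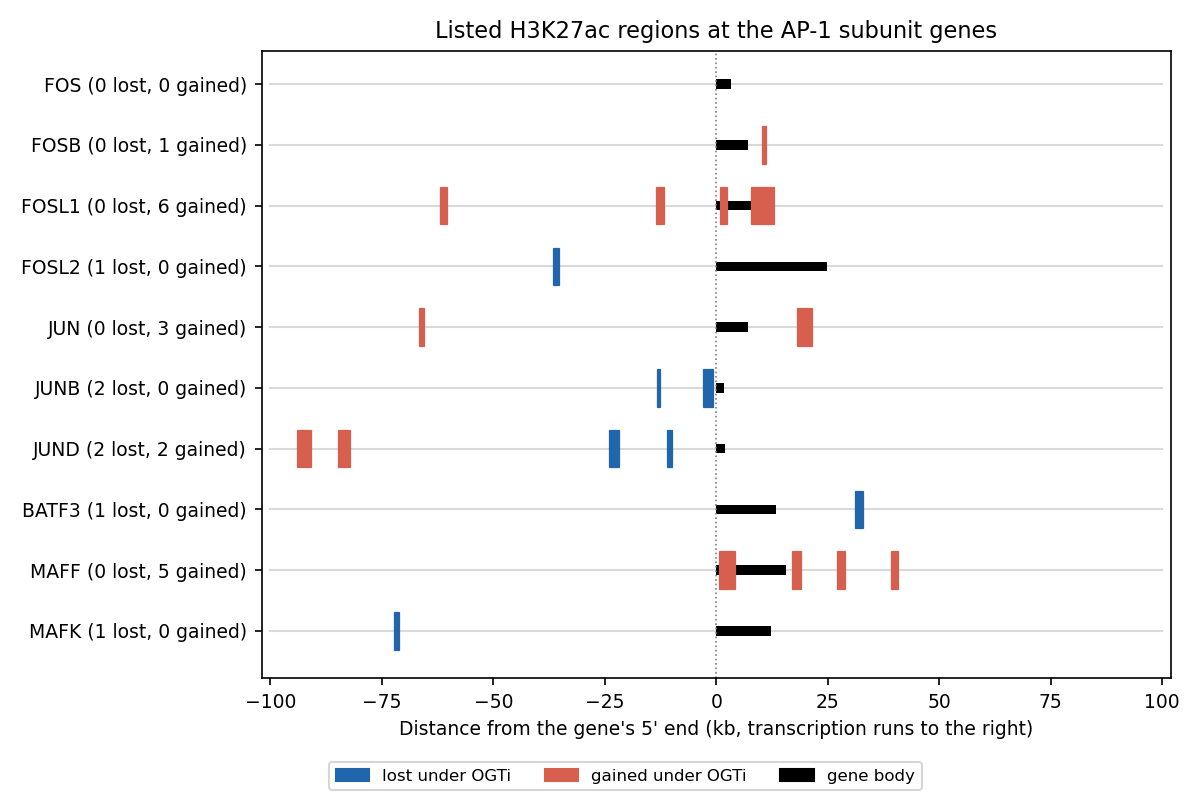
Listed H3K27ac regions at the AP-1 subunit genes. Each line is a gene, the x axis gives the distance from its 5′ end in kb with transcription to the right, blue and red boxes are regions lost and gained under OGTi, and black bars are gene bodies. FOSL1 and MAFF carry 6 and 5 gained regions, JUNB has its lost regions upstream, and JUND has lost regions nearer than its gained ones.

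Within 2500 bp of the 5′ end, JUNB had a lost region, and FOSL1 and MAFF had a gained one. The remaining 7 genes had neither. Over all protein-coding genes, 1.96% had a lost and 6.41% a gained region in this window. None of the 3 regions covered the annotated 5′ end of the gene, which lay 677 bp from the lost region of JUNB, 827 bp from the gained region of FOSL1 and 621 bp from that of MAFF. The MAFF region did cover the starts of shorter MAFF transcripts, and the other 2 regions covered no start of their gene.

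In the JUN family, whose members form dimers with each other and with FOS proteins, the direction differed from gene to gene. JUNB is a JUN protein with weaker activation than JUN in several settings (chromosome 19, 12791486 to 12793315, plus strand, ENSG00000171223.6), and had 2 lost regions and no gained one. The wider of them, 12788494 to 12790809 (2316 bp), spanned positions -2992 to -677 relative to the 5′ end, in an intron of a long transcript of HOOK2. It held the AP-1 match at 12789516 to 12789522 and the CArG box at 12789948 to 12789957 that are printed above. CArG boxes were present in 1 of the 7 lost regions of the group, against 14.7% of all lost regions. The narrower region, 12778116 to 12778785 (670 bp), lay 12.7 kb upstream and covered the start of a shorter transcript of HOOK2, a microtubule-binding protein, and the 2 regions fell to 15 and 14 protein-coding genes by the same rule. The nearest gained region was 154.3 kb away. At least 2 lost regions were found at 8.38% of protein-coding genes.

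JUN, the founding member of the family (chromosome 1, 58776845 to 58784048, minus strand, ENSG00000177606.9), had 3 gained regions and no lost region. A pair of them abutted, 58762519 to 58764518 and 58764519 to 58766006, with their nearer edge 18.0 kb downstream of the 5′ end and beyond the gene. They lay in an intron of a long non-coding RNA gene, ENSG00000283445. The third gained region, 58849603 to 58850637, lay 65.6 kb upstream in introns of LINC01135 and ENSG00000231740. No 5′ end of another protein-coding gene was closer to any of the 3 regions than that of JUN. They were poor in CpG, with an observed/expected ratio of 0.146, 0.0677 and 0.0708, compared with a median of 0.247 for all gained regions. No AP-1 match was found in them, but ARE matches were found in 2 and the partial MAF recognition element TGCTGAG or TGCTGAC in 2. At least 3 gained regions were found at 3.81% of protein-coding genes, and the nearest lost region of JUN was 155.2 kb away.

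JUND is the most steadily expressed JUN protein (chromosome 19, 18279694 to 18281622, minus strand, ENSG00000130522.6). It was the only gene of the 10 with both kinds of region, and all 4 lay upstream. The lost regions, 18291621 to 18292723 and 18303317 to 18305646, had their nearer edge 10.0 kb and 21.7 kb from the 5′ end. The gained regions, 18363818 to 18366409 and 18372435 to 18375774, were 82.2 kb and 90.8 kb away. The farther gained region covered the start of GDF15, a stress-induced cytokine gene, with its centre 627 bp from the 5′ end of that gene, and the other was centred in an untranslated exon of PGPEP1, closer to starts of PGPEP1 and GDF15 than to JUND. Only the lost region at 10.0 kb had JUND as its nearest protein-coding gene, since LSM4 was nearer to the other lost region (18.6 kb from its centre, compared with 22.9 kb for JUND). With a window of 50 kb, JUND therefore had lost regions only.

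**Figure D2:**
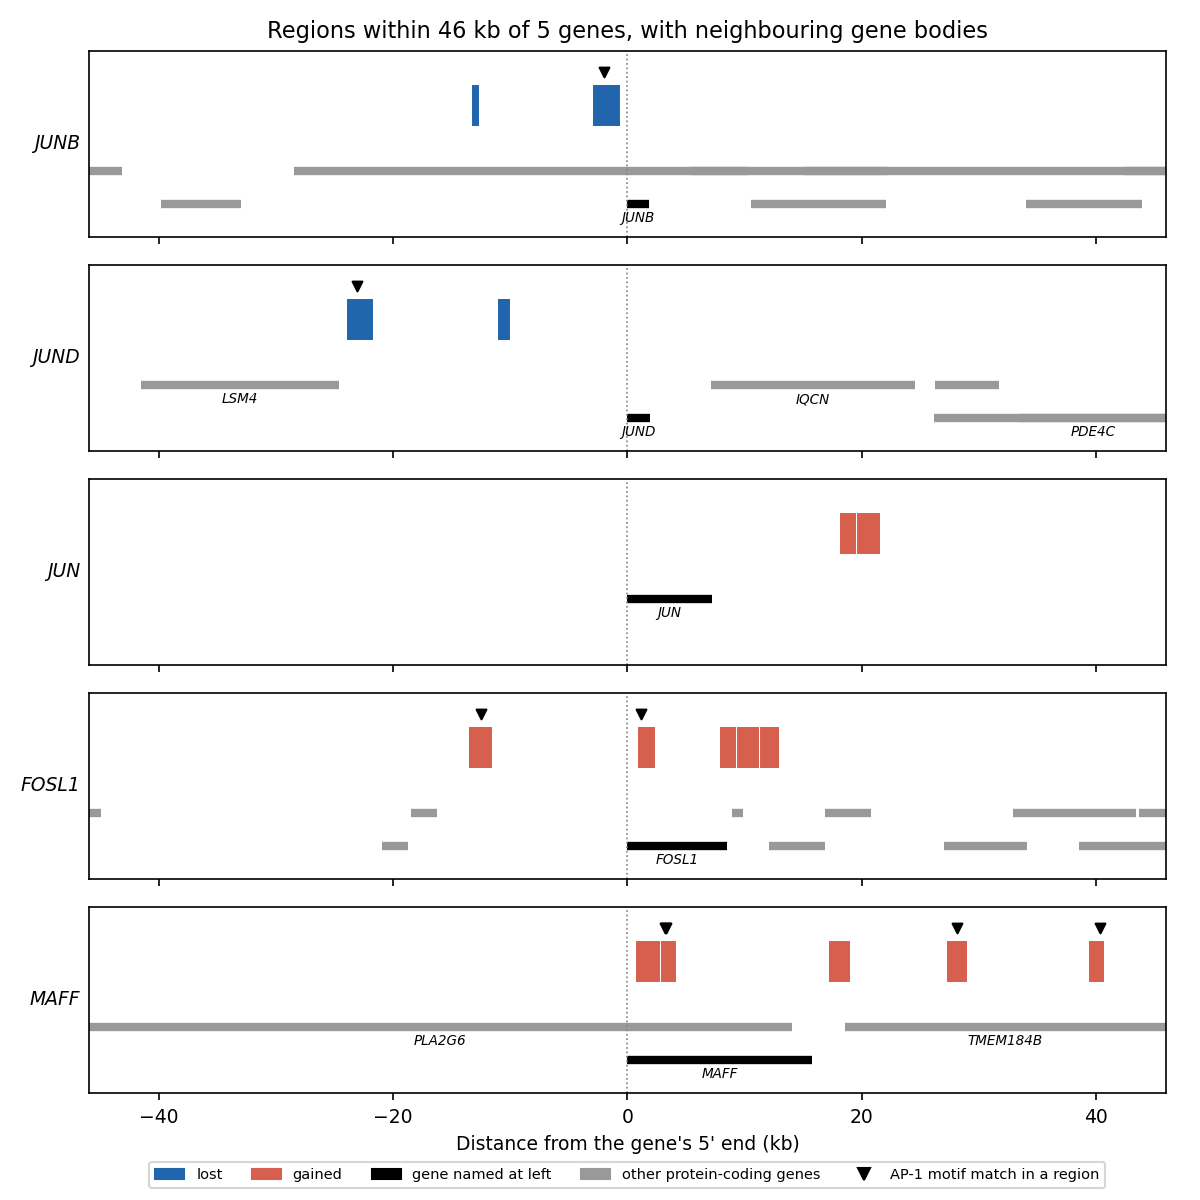
Regions within 46 kb of JUNB, JUND, JUN, FOSL1 and MAFF. The x axis gives the distance from the 5′ end of the gene in kb, boxes are lost (blue) and gained (red) regions, black bars the gene named at left, grey bars other protein-coding genes and triangles AP-1 matches within a region. The matches at 38203946 and 38204062 of MAFF fall together as 1 triangle, and neither JUN region in view has one.

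In the FOS family, FOSL1 had the most gained regions. FOSL1 encodes FRA-1, a FOS protein without a transactivation domain that is induced by ERK signalling and by AP-1 itself (chromosome 11, 65892049 to 65900573, minus strand, ENSG00000175592.9). It had 6 gained and no lost regions, and at least 6 gained regions were found at 0.536% of protein-coding genes (107 of 19970). In this share, and in those given for JUN and MAFF, abutting regions were counted separately at every gene. The region 65898216 to 65899746 (1531 bp) was intronic, 827 to 2357 bp downstream of the 5′ end, and was the only one of the 6 with FOSL1 as its nearest protein-coding gene. It held a row of 3 ARE matches at 65899386, 65899400 and 65899414, 14 bp apart, of which the first contains the AP-1 match. With a further ARE match at 65899572 it held 4 in all, and of the 457 gained regions of like width, itself included, 0.219% held as many, a feature picked after its value was seen. A further AP-1 match, also within an ARE match, lay at 65913108 in the region 65912174 to 65914173, 11.6 kb upstream in intergenic sequence. These were the only AP-1 matches in the 6 regions.

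The other 4 gained regions of FOSL1 lay at or next to starts of neighbouring genes. The abutting regions 65887626 to 65889311, 65889312 to 65891311 and 65891312 to 65892779 ran over the starts of FIBP and CCDC85B and into the 3′ part of FOSL1. The region 65961048 to 65962603 covered the start of SART1, a splicing factor gene, 60.5 kb upstream. The 5′ ends of 11 other protein-coding genes lay within 100 kb of that of FOSL1, and each of the 6 regions fell to between 12 and 16 protein-coding genes by the same rule. They were part of 1 series of 7 gained regions with neighbouring centres within 50 kb. The nearest lost region was 287.7 kb from the 5′ end.

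The other FOS genes had few regions. FOS, the prototype immediate early gene (chromosome 14, 75278826 to 75282230, plus strand, ENSG00000170345.10), had none. Its nearest lost region, 75453724 to 75455896, was 174.9 kb away, inside JDP2, which encodes a bZIP repressor of AP-1 and is named here after its position was seen. Its nearest gained region was 1193.1 kb away, and 87.9% of protein-coding genes had a gained region at least as near. FOSB (chromosome 19, 45467995 to 45475179, plus strand, ENSG00000125740.15) had 1 gained region, 45478379 to 45479176 (798 bp), which began 10.4 kb from its 5′ end and covered the start of the DNA repair gene ERCC1. FOSL2, which encodes FRA-2 (chromosome 2, 28392448 to 28417317, plus strand, ENSG00000075426.12), had 1 lost region, 28355764 to 28357149 (1386 bp), in intergenic sequence 35.3 kb upstream. FOSL2 was the nearest protein-coding gene of that region, which held no AP-1, ARE, CRE or TEAD match. It did hold the partial MAF element TGCTGAG, at 28356501.

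BATF3, a small bZIP factor best known from dendritic cells (chromosome 1, 212686417 to 212699840, minus strand, ENSG00000123685.9), had 1 lost region. It lay downstream of the gene in intergenic sequence (212666899 to 212668776, 1878 bp), 31.1 kb from the 5′ end, and held the AP-1 match at 212667559 to 212667565. No other protein-coding gene was nearer to it. The nearest gained region was 663.1 kb away. BATF3, FOSL2 and MAFK each had 1 lost and no gained region, a combination that 1698 other protein-coding genes without a region in common with BATF3 also had (8.50% of all).

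The 2 small MAF genes differed. MAFF (chromosome 22, 38200767 to 38216507, plus strand, ENSG00000185022.12) had 5 gained and no lost regions, and at least 5 gained regions were found at 0.901% of protein-coding genes (180 of 19970). The abutting regions 38201388 to 38203550 and 38203551 to 38204876 covered the 5′ part of MAFF, from 621 to 4109 bp downstream of the annotated 5′ end. Both regions were also centred in an intron of PLA2G6. Of these, the wider one contained both promoter windows that RefSeq gives for MAFF (250 bp before to 50 bp after a start), 38201744 to 38202043 and 38202770 to 38203069, and was the only listed region that overlapped a RefSeq promoter window of the 7 genes for which such windows were used (those of FOSL1, BATF3 and MAFK were not used here). The CRE at 38201940 to 38201947, printed above, lay 54 bp upstream of the start in the RefSeq window. In GENCODE, however, the last 30 bases of the printed stretch, which hold the CRE, are untranslated exon of MAFF. CREs were present in 1.85% of the 35116 RefSeq promoters and in 2 of the 8 windows held for 7 of the 10 genes, those of MAFF and JUND. In the second region, 2 AP-1 matches lay at 38203946 and 38204062.

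The remaining gained regions of MAFF were 38217861 to 38219733, just beyond its 3′ end, and 38227948 to 38229726 and 38240090 to 38241445, in introns of TMEM184B. Their nearer edges were 17.1, 27.2 and 39.3 kb from the 5′ end of MAFF. A start of PLA2G6 or TMEM184B was closer to each of these regions than that of MAFF. The last 2 held 1 AP-1 match each, at 38228905 and 38241061. The 5 regions formed 1 series with no lost region between them, and the nearest lost region was 687.7 kb away.

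MAFK (chromosome 7, 1530702 to 1543043, plus strand, ENSG00000198517.10), by contrast, had 1 lost and no gained region. This region, 1458370 to 1459522 (1153 bp), lay 71.2 kb upstream and covered a start of MICALL2, whose gene 5′ end was 524 bp from its centre. It held 2 AP-1 matches, TGAGTCA at 1458945 to 1458951 and TGACTCA at 1458956 to 1458962, the latter within an ARE match. At least 2 AP-1 matches were found in 7.09% of lost regions of like width, a feature picked after its value was seen. The nearest gained region of MAFK was 430.5 kb from its 5′ end.

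**Figure D3:**
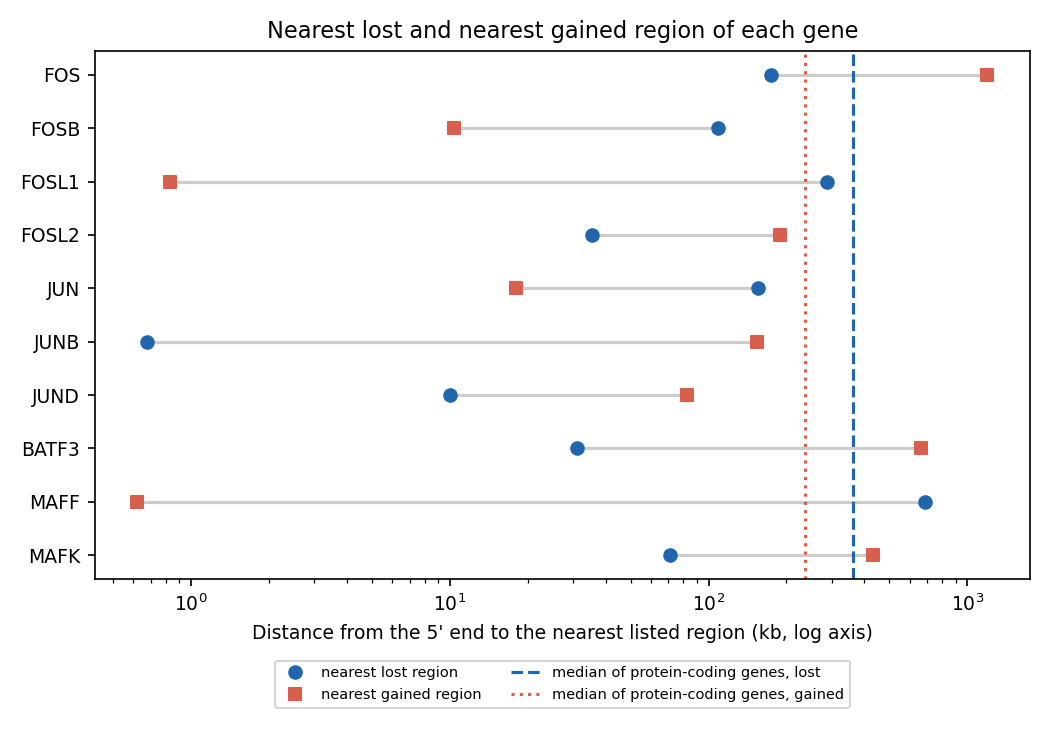
Distance from the 5′ end of each gene to its nearest lost region (blue circles) and nearest gained region (red squares), in kb on a log axis. Vertical lines give the medians over protein-coding genes, 360.1 kb for lost (dashed) and 235.4 kb for gained regions (dotted). The pairs of points lie far apart for JUNB, FOSL1 and MAFF, with 1 direction within 1 kb and the other beyond 100 kb.

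The distance to the nearest region describes all 10 genes, FOS included. Lost regions were nearest to JUNB (0.7 kb), JUND (10.0 kb), BATF3 (31.1 kb), FOSL2 (35.3 kb) and MAFK (71.2 kb), and farthest from MAFF (687.7 kb). Gained regions were nearest to MAFF (0.6 kb), FOSL1 (0.8 kb), FOSB (10.4 kb) and JUN (18.0 kb), followed by JUND (82.2 kb), and farthest from FOS (1193.1 kb). The median distance of the 10 genes was 89.8 kb to lost and 118.2 kb to gained regions, compared with 360.1 kb and 235.4 kb for protein-coding genes. A lost region at least as near as that of JUNB was found at 1.47% of protein-coding genes, and a gained region at least as near as that of FOSL1 and of MAFF at 5.90% and 5.79%. For the other direction, the shares were 38.9% for the nearest gained region of JUNB, and 43.8% and 68.7% for the nearest lost regions of FOSL1 and MAFF.

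Wider surroundings gave another picture for some genes. Within 1 Mb of the 5′ end, JUNB had 3 lost and 4 gained regions and JUND 2 lost and 8 gained ones. JUN had 7 lost and 5 gained regions, of which 4 of each kind lay within 250 kb. FOSL1 had 10 lost and 17 gained regions, MAFF 5 and 12, FOSB 4 and 10, and FOSL2 7 of each. FOS and MAFK had 1 lost region, with 0 and 3 gained ones, and BATF3 had 1 lost and 2 gained.

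Distance to a 5′ end does not assign a region to a gene. A member of the group was the nearest protein-coding gene for 11 of the 24 regions (5 of 7 lost and 6 of 17 gained). By the starts of all protein-coding transcripts, it was so for 10. The starts of other protein-coding genes were covered by 7 regions, those at ERCC1, FIBP, CCDC85B, SART1, HOOK2, GDF15 and MICALL2, and 1 region covered a start of its own gene, that of MAFF. Only 4 regions overlapped the body of their gene, 2 in FOSL1 and 2 in MAFF. Of the lost regions, 6 of 7 lay upstream of the gene, and of the gained regions 12 of 17 lay downstream of the 5′ end. Regions at the same gene, some of them abutting, are not independent, and all 5 of MAFF lay downstream. The share of each side over all listed regions was not computed, so nothing is drawn from these counts.

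The 7 lost regions were rich in G and C. Their median GC content was 62.3% (range 46.2% to 69.3%), compared with 46.8% for all lost regions. Except for the BATF3 region, at 46.2%, each of them was between the percentiles 89.7 and 97.7 of all lost regions. The median CpG observed/expected ratio was 0.493, compared with 0.202, but the regions of FOSL2 (0.156) and BATF3 (0.191) were below the latter. In the 17 gained regions, GC content was 54.0% (39.9% to 66.9%), compared with 46.1%, and the CpG ratio was 0.256, close to the 0.247 of all gained regions. In width, the lost regions were narrower (median 1386 bp, against 1905 bp) and the gained regions like the rest (1686 bp, against 1697 bp). Of the 7 lost regions, 4 lay on chromosome 19, around JUNB and JUND, so that the 7 are not independent, and the differences were not tested.

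**Figure D4:**
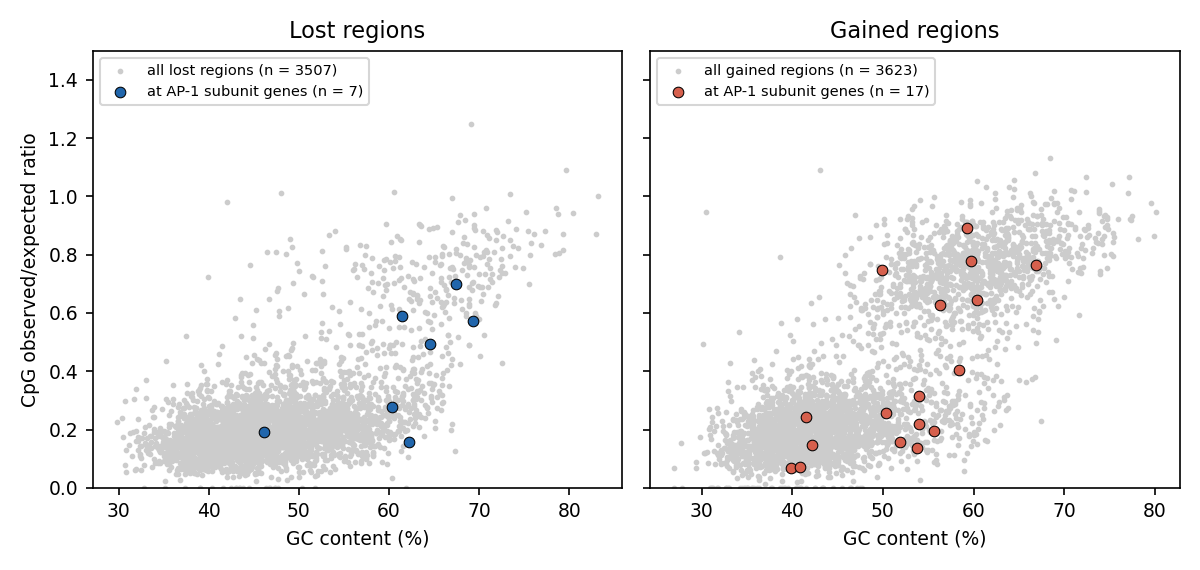
GC content (x axis, %) and CpG observed/expected ratio (y axis) of lost (left) and gained (right) regions. Grey points are all regions of the list and coloured points the 7 lost and 17 gained regions at the AP-1 subunit genes. All coloured points of the left panel but that of BATF3 lie above 60% GC.

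AP-1 can bind regulatory regions of its own subunit genes, so that the motif was looked for in the 24 regions. The element TGACTCA, on either strand, was present in 10 of them (41.7%), with 13 matches. Over listed regions of the same direction and like width (within 10%), the share averaged 41.3%, and it was 41.1% over all listed regions. By direction, 4 of 7 lost regions held it (37.3% of regions of like width) and 6 of 17 gained regions (43.0%). Of the 13 AP-1 matches, 5 were part of an ARE match and 2 overlapped the partial MAF element.

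The lost matches outside the sequences printed above were few, with 1 at JUND (18304706). In the gained regions of JUND, AP-1 matches lay at 18374290 and 18374604, both near GDF15. With 10 flanking bases on each side, the matches not yet shown were as follows, to let their surroundings be compared.
JUND, lost, chr19:18304696-18304722: agcccccggcTGAGTCAcagcacagcg
JUND, gained, chr19:18374280-18374306: tttacccctgTGACTCAgagcagatct
JUND, gained, chr19:18374594-18374620: ccagccctgcTGACTCAtactcagctg
FOSL1, gained, chr11:65913098-65913124: agcgttctctTGACTCAgctgttttag
MAFF, gained, chr22:38203936-38203962: aggtggggttTGAGTCAggagggttgg
MAFF, gained, chr22:38204052-38204078: agtggctggtTGACTCAgtcccagatg
MAFF, gained, chr22:38228895-38228921: aacaaggcagTGAGTCAcagctggccg
MAFF, gained, chr22:38241051-38241077: acggaacaggTGACTCAgcacaggaga

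TEAD4, a DNA-binding partner of YAP1, is among the factors that the study followed in LX-2 cells. The TEAD motif (A or G, then CATTCC, then A or T) was present in 1 of the 7 lost regions, that of JUND nearest to the gene, where GCATTCCA lay at 18292069. The share in lost regions of like width was 40.4%. It was present in 4 of the 17 gained regions, compared with 29.3%. These were at FOSL1 (65912527), JUND (18365264) and MAFF (38218790 and 38241148). ARE matches were found in 15 of 24 regions (49.2% of regions of like width) and the partial MAF element in 13 (46.9%). The composite ATF4-C/EBP element TGATGCAA was found in none of the 24 regions (9.27% of regions of like width). With 7 and 17 regions, several of which abut, these counts are a description, and nothing particular to the group is drawn from them.

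Beyond the subunits, 79 genes of AP-1 signalling were followed, from partner proteins to targets. Of these, 17 (21.5%) had a lost region and 47 (59.5%) a gained one, compared with 21.6% and 30.6% of protein-coding genes. Gained regions alone were found at 38 genes, lost regions alone at 8, both at 9 and neither at 24. Within 2500 bp of the 5′ end, 6 of the 79 genes had a lost and 12 a gained region. Over all protein-coding genes, the shares in this window were 1.96% and 6.41%. A region near several of these genes was counted at each of them. The shares are a description, since the list was drawn up with earlier results known, and whether each gene is expressed in LX-2 cells was not used here.

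**Figure D5:**
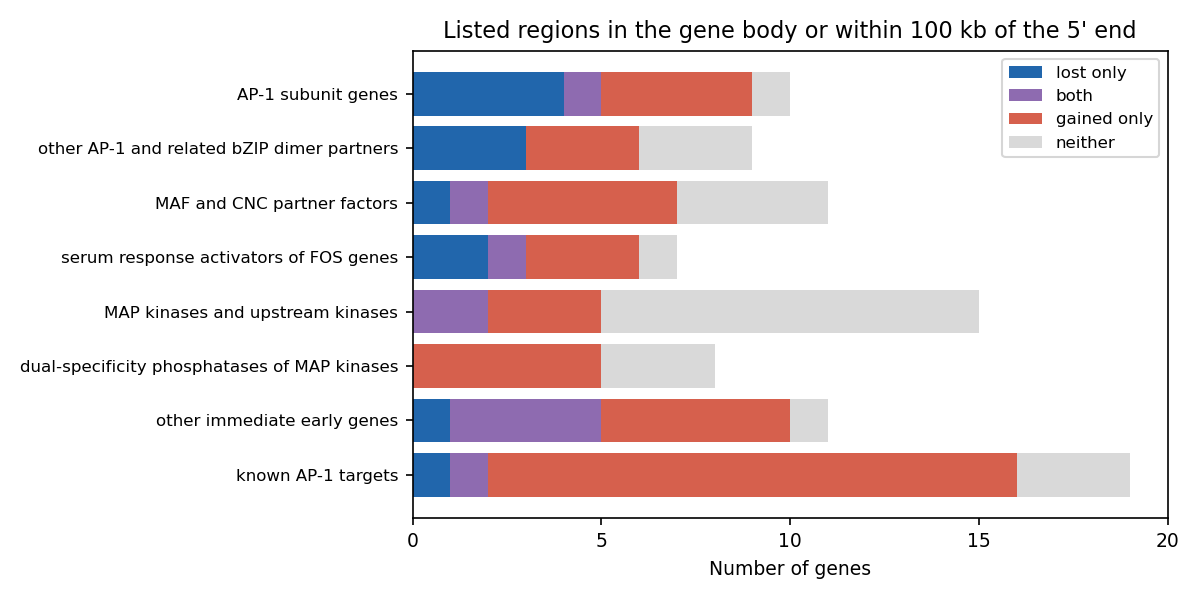
Number of genes with lost regions only, both kinds, gained regions only or neither, in the gene body or within 100 kb of the 5′ end, for the 10 AP-1 subunit genes and for 7 groups of genes of the same signalling. ATF3 is counted in 2 groups. Known AP-1 targets are mostly red, and dual-specificity phosphatases have no blue.

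Known AP-1 targets had gained regions at 15 of 19 genes (78.9%, compared with 30.6% of protein-coding genes) and lost regions at 2 (10.5%, compared with 21.6%). At the 5′ end, gained regions were found at CCND1 (cyclin D1), CD44 (a hyaluronan receptor) and CXCL8 (interleukin-8), and lost regions at CCL2 and EDN1, which encode a monocyte chemokine and endothelin-1. EDN1 had 3 lost and 2 gained regions in all. TIMP1, an inhibitor of matrix metalloproteinases, had 5 gained regions, none of them at its 5′ end.

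The dual-specificity phosphatases, which switch off MAP kinases, had no lost region (21.6% of protein-coding genes had one). Gained regions were at 5 of 8 of them (62.5%, compared with 30.6%). The gained regions lay at the 5′ end in DUSP5 and DUSP6, phosphatases of ERK. MAP kinases and their upstream kinases had a gained region in 5 and a lost region in 2 of 15 genes. These shares, 33.3% and 13.3%, were near and below the 30.6% and 21.6% of protein-coding genes. At the 5′ end, MAP2K7, which activates JNK, had a gained region, with 5 gained regions in all, and RPS6KA1, a kinase downstream of ERK, a lost one, with 1 gained region farther off. Of the factors that bind the FOS promoter, SRF had a lost region at its 5′ end (chromosome 6, 43170219 to 43171756) and 2 lost regions in all. Its partners ELK3 and ELK4 had gained regions at theirs, and ELK3 also had 1 lost region elsewhere.

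Other immediate early genes had gained regions in 9 and lost regions in 5 of 11 cases (81.8% and 45.5%, compared with 30.6% and 21.6% of protein-coding genes). Gained regions were found at the 5′ end of MYC, KLF6 and ZFP36, and lost regions at that of EGR1 and EGR3. MYC and ZFP36 also had 1 lost region each farther from the 5′ end, and EGR1 had 1 gained region. Among other AP-1 and related bZIP factors, 3 of 9 genes had a lost region and 3 a gained one (33.3% each, compared with 21.6% and 30.6%). The lost region in JDP2, which is also the nearest lost region of FOS, was the only one given to BATF as well. DDIT3, a stress-induced factor that pairs with C/EBP proteins, had 4 gained regions, 2 of them at its 5′ end. Of the MAF and CNC partner factors, 6 of 11 had a gained and 2 a lost region (54.5% and 18.2%, compared with 30.6% and 21.6%). BACH1, a repressor that pairs with small MAF proteins, had 8 gained regions, 7 of them in its body of 436.7 kb.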

How the data were processed

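H3K27ac ChIP-seq regions of LX-2 cells (4 control and 4 OGTi replicates) were analysed. As the methods state, the authors mapped reads to hg38 with Chromap, called peaks with MACS2 (version 2.1.1.20160309 in the submitters' processing notes) against input DNA, cut them into bins and tested the bins with MAnorm2. The deposited lists hold 3 columns, namely the chromosome, start and end of each lost or gained region, with no signal or p-value. Their names give an adjusted p of 0.15, and the methods text a lower one. Depth is unknown. Wide domains are listed as abutting bins.

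The member genes and gene lists were chosen with earlier results of these data known. Starts were converted to count from 1. All regions lay within the hg38 chromosomes of the reference. Genes came from GENCODE release 44 (the study used an earlier release), and promoter sequences from RefSeq (GRCh38.p14, 7 of 10 genes matched). Regions were given to genes within 100 kb of the 5′ end or in the gene body, and no test was run. The named signalling genes were those with a region within 2500 bp of the 5′ end, and then, up to 20 genes in all, those with the most regions among genes with at least 3. Motifs were matched exactly on both strands. The code was tested on simulated data with planted regions and motifs (Python 3.11.15, pandas 2.3.3).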

Additional observations from a re-analysis of the deposited data

How the results depend on the processing

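No paired analysis was possible because neither list holds a value per replicate, and for the same reason no replicate could be left out and no stricter threshold applied. Of 34 counts under other settings, 23 stayed within 1.5 times the count given. With a window of 250 kb, 8 of the 10 genes (5 at 100 kb) had a lost region, compared with 40.4% of protein-coding genes (21.6% at 100 kb), and 15 lost regions (7 at 100 kb) were at the genes. A gained region was at 7 of the 10 genes in this window, compared with 52.1% of protein-coding genes. With a window of 50 kb, 4 genes had a lost and 4 a gained region, compared with 14% and 20.7%. With the gene body and 2500 bp alone, 1 gene had a lost region and 2 had gained ones, with 1 lost and 4 gained regions, compared with 6.94% and 11.3% of protein-coding genes, and 10 and 21 of the 79 signalling genes had a lost and a gained region. Of the 17 gained regions, 6 had a member as the nearest protein-coding gene. By the nearest start of any protein-coding transcript, a setting chosen after seeing the data, the member was nearest to 4 lost and 6 gained regions.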
